A study of Homo sapiens with 6 samples.

Results

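Metallothioneins and the machinery around them were followed through 9 genes: the metallothioneins MT1E, MT1F, MT1G, MT1H, MT1M, MT1X and MT2A, their metal-sensing transcription factor MTF1 and the plasma membrane zinc exporter SLC30A1. Every probe set that the platform's gene table assigns to 1 of these symbols was taken, which gave 17 of the 54675 probe sets on the array, for 9 of the 19775 genes it names. No probe set that carries several symbols includes a member. Of the 17, 15 had a mean of at least log2 5 over the arrays, the level under which a value was treated as near background, and these were tested among 29412 probe sets. The other 2, MT1G 210472_at and SLC30A1 242716_at, are given as levels only.

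The cells were HCA-7, an established human colorectal cancer line that grows in type-1 collagen as cystic or as spiky colonies. The cystic group is the clone cc3 and the spiky group the clone sc1, neither carrying a named genetic change or drug treatment, and each was grown in a 3D collagen gel and sampled at day 5, day 10 and day 15. RNA came from the gel layer that holds the cells, and 1 Affymetrix U133 Plus 2.0 array was run per clone and day, 6 in all. The design asks how the colony shapes differ and how expression moves with time in culture. Each shape is 1 clone, so shape and clone cannot be told apart, and no label says that the days came from separate cultures. The p-values thus reflect no more than the scatter among the 6 arrays, and that scatter may be technical.

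Array medians lay between 5.18 and 5.33 on the deposited log2 scale. Of 8 epithelial markers 6 averaged at least 5, with KRT20 and CDX2 under it, against 2 of 8 fibroblast, 3 of 7 leukocyte and 0 of 4 endothelial markers. The summed epithelial level was 13.8 to 14.3 in the cystic and 13.8 to 14.1 in the spiky clone, and the fibroblast level 7.95 to 8.82 and 7.84 to 8.46. The 3' minus 5' difference of the ACTB control probe sets was 2.83, 3.18 and 3.28 in the cystic and 2.73, 2.74 and 3.10 in the spiky clone, highest at day 15 in each. For GAPDH the same difference was 0.65, 0.79 and 0.63 in the cystic and 0.60, 0.63 and 0.49 in the spiky clone. There day 15 was lowest in each, so the 2 controls went opposite ways. As in any bulk sample, fewer cells of a type and less RNA per cell cannot be told apart.

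Metallothioneins are small cysteine-rich proteins that bind zinc, copper and cadmium and buffer the free metal in the cell. When zinc rises, MTF1 binds it, enters the nucleus and switches on metallothionein genes and SLC30A1 through short metal response elements in their promoters, so that zinc is both sequestered and pumped out. In the gut epithelium these genes take part in zinc absorption and in protection against metals and oxidants.

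The promoters are shown because they carry the sequence through which the members are known to be switched on together. RefSeq's promoter table (GRCh38.p14) held 5 of the 9 genes: MT2A, MT1H, MT1X, SLC30A1 and MTF1. Below are the 250 bases before the start of 4 of them, 5′ to 3′ on the gene's strand, at chr16:56608334-56608583 (plus strand) for MT2A, chr16:56669564-56669813 (plus) for MT1H, chr16:56682220-56682469 (plus) for MT1X and chr1:211579162-211579411 (minus) for SLC30A1. Capitals mark every match to the metal response core TGCACNC or TGCGCNC on either strand.
MT2A: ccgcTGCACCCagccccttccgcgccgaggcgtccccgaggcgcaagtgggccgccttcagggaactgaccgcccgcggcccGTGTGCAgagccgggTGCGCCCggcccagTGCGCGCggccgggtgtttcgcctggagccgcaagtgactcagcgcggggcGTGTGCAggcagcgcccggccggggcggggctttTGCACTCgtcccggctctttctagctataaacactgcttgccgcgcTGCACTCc
MT1H: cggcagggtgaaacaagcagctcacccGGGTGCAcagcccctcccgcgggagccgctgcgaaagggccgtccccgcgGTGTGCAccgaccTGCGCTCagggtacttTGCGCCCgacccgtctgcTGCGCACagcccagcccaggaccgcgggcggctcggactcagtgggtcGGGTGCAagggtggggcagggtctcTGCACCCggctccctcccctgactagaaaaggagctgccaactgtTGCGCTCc
MT1X: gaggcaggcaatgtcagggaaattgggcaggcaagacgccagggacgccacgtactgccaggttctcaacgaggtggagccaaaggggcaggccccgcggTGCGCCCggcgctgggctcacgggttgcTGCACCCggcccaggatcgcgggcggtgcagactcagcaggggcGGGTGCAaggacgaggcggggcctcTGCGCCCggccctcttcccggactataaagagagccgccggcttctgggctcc
SLC30A1: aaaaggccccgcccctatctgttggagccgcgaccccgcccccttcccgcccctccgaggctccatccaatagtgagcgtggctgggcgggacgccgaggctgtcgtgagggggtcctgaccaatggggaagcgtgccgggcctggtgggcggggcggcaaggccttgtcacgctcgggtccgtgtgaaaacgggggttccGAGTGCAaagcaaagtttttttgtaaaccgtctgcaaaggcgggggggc

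The MT2A window held 7 cores, that of MT1H 8, that of MT1X 4 and that of SLC30A1 1, and MTF1 held 0. None of these matches overlapped another. Over the 35116 promoter windows in the table, 24.8% held at least 1 core, 0.370% at least 4 and 0.0313% at least 7. The MT1H and MT1X windows shared the positions of 2 cores, at 53 to 47 and 78 to 72 bases before the start. The antioxidant core TGACNNNGC, the letters bound by the oxidant-sensing factor NRF2, was found once each in the MT2A, MT1X and SLC30A1 windows (10.9% of all windows), and the hypoxia core ACGTG once, in MT1X (18.5%). A match is a description of the letters and says nothing on binding. MT1E, MT1F, MT1G and MT1M are named only.

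In RefSeq's order along chromosome 16 the metallothioneins run MT2A, MT1E, MT1M, MT1F, MT1G, MT1H, MT1X, while MTF1 and SLC30A1 lie on chromosome 1. Of the 10 metallothionein probe sets tested, 9 end in _x_at, a suffix Affymetrix gives to probe sets with probes that can detect related transcripts. On the whole array 4207 of 54675 probe sets have it, 2848 of them among the 29412 tested. The 9 may therefore report partly on one another, and of these 7 genes only MT1M, at 217546_at, has a tested probe set without it.

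MTF1 was measured by 3 probe sets that gave different pictures. At 205322_s_at it read 5.63, 5.32 and 5.59 in the cystic clone on day 5, 10 and 15, and 6.43, 5.87 and 5.82 in the spiky clone. All 3 spiky arrays lay above all 3 cystic arrays, with the spiky day 5 array highest. At 205323_s_at the values were 8.35, 8.58 and 8.62 against 8.54, 8.76 and 8.47, and at 227150_at 7.98, 7.87 and 8.09 against 7.94, 7.88 and 8.07. In both of these the clones overlapped, and at 227150_at their values nearly coincided on every day. The fitted spiky minus cystic difference was 0.52 (SE 0.20, 95% interval 0.08 to 0.96) at 205322_s_at, with a limma adjusted p of 0.143, against 0.07 (adjusted p = 0.815) and -0.02 (adjusted p = 0.962) at the other probe sets, the last turning to 0.04 with arrays centred on their medians and 0.01 after cyclic loess. Over time, the limma differences of day 15 from day 5 were -0.33, 0.10 and 0.12, with adjusted p from 0.344 to 0.685. None of the MTF1 probe sets passed in any comparison.

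MT2A, usually the most widely expressed metallothionein gene, read 11.86, 11.93 and 12.05 in the cystic clone on day 5, 10 and 15 and 11.59, 11.70 and 12.01 in the spiky clone. Within each clone day 15 was highest, and on each day the spiky array lay below the cystic one, although the clones overlapped. It rose 1.24-fold from day 5 to day 15 (log2 difference 0.31, SE 0.08, limma adjusted p = 0.0145). The spiky minus cystic difference was -0.18 (95% interval -0.32 to -0.04) and had an adjusted p of 0.114 in limma.

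MT1X had 2 probe sets that moved alike. At 208581_x_at the cystic arrays of day 5, 10 and 15 read 10.58, 10.57 and 10.80 and the spiky arrays 10.43, 10.49 and 11.10, and at 204326_x_at they read 10.38, 10.28 and 10.56 and then 10.26, 10.24 and 10.81. In each, spiky day 15 was the highest array and cystic day 15 the next, and the 2 lowest were spiky day 5 and day 10. The rise from day 5 to day 15 was 0.45 (SE 0.12, 1.36-fold, limma adjusted p = 0.0181) and 0.37 (SE 0.11, 1.29-fold, limma adjusted p = 0.0339). The clones differed by 0.02 (95% interval -0.19 to 0.24) and 0.03 (-0.18 to 0.23) over the 3 days.

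MT1F was measured by 2 probe sets whose order of clones was opposite. At 213629_x_at the cystic arrays read 9.85, 9.72 and 10.33 and the spiky arrays 9.53, 9.50 and 9.95, with the cystic array higher on every day, while at 217165_x_at they read 9.35, 9.26 and 9.42 and then 9.45, 9.43 and 9.74, with all 3 spiky arrays above all 3 cystic ones. The fitted clone differences were -0.31 (SE 0.09, 95% interval -0.51 to -0.11) and 0.19 (SE 0.10, interval -0.03 to 0.42), with limma adjusted p of 0.0638, the smallest among the members, and 0.300. The first probe set rose 1.36-fold from day 5 to day 15 (log2 difference 0.45, SE 0.11, limma adjusted p = 0.0145), and the second was at 0.18 (adjusted p = 0.320). Which transcript each of them reports was not tested.

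MT1E, the member after MT2A in RefSeq's order, read 10.05, 10.11 and 10.00 in the cystic clone and 10.24, 10.24 and 10.51 in the spiky clone at 212859_x_at. The clones did not overlap there, and the spiky minus cystic difference of 0.28 (SE 0.10, 95% interval 0.06 to 0.49) had a limma adjusted p of 0.116. Its other probe set, 216336_x_at, read 10.07, 10.20 and 10.17 and then 10.12, 10.15 and 10.54, with overlap and a difference of 0.12 (interval -0.10 to 0.35). Day 15 stood above day 5 by 0.11 (limma adjusted p = 0.532) and 0.26 (adjusted p = 0.143). The second passed without cystic day 15 (0.44, limma adjusted p = 0.0062) and after cyclic loess (0.41), and was at 0.069 without spiky day 15.

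MT1G read 9.55, 9.54 and 9.72 in the cystic and 9.47, 9.53 and 9.97 in the spiky clone at 204745_x_at. MT1H, the member after it, read 9.36, 9.27 and 9.43 and then 9.34, 9.46 and 9.82. In both, spiky day 15 was the highest array. From day 5 to day 15 MT1G was at 0.33 (SE 0.13, limma adjusted p = 0.0718) and MT1H at 0.27 (SE 0.13, limma adjusted p = 0.158), and neither passed. Both passed without cystic day 15, at 0.48 (limma adjusted p = 0.0091) and 0.43 (limma adjusted p = 0.0285), and after cyclic loess, at 0.48 and 0.42. Without spiky day 15 MT1G was at 0.18 and MT1H at 0.12. The other MT1G probe set, 210472_at, stayed near background at 3.93, 3.67 and 3.79 in the cystic and 4.10, 3.87 and 3.71 in the spiky clone, so the MT1G value rests on the probe set that can detect relatives.

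MT1M, the only one of the 7 metallothioneins measured by a tested probe set without the _x_at suffix, did not follow the rest. It read 7.08, 6.18 and 5.72 in the cystic clone on day 5, 10 and 15 and 5.78, 6.15 and 6.12 in the spiky clone. The cystic day 5 array stood alone at the top, 2.56-fold above cystic day 15, which was the lowest of the 6. The spiky minus cystic difference was -1.30 at day 5, -0.03 at day 10 and 0.40 at day 15, and the fitted clone difference was -0.31 (95% interval -0.95 to 0.33, limma adjusted p = 0.602). From day 5 to day 15 the fitted difference was -0.51 (95% interval -1.30 to 0.28, limma adjusted p = 0.318), made of -1.36 in the cystic clone and 0.34 in the spiky clone. It passed as a fall without spiky day 5 (-1.25, limma adjusted p = 0.0386) and without spiky day 15 (-1.04, limma adjusted p = 0.0372), and was at 0.23 without cystic day 5.

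SLC30A1 moves zinc out across the plasma membrane. At 228181_at it read 8.53, 8.30 and 8.43 in the cystic and 8.88, 8.77 and 8.71 in the spiky clone, so that every spiky array lay above every cystic array. At 212907_at the values were 8.61, 8.71 and 8.43 against 8.83, 8.61 and 8.92, and the clones overlapped through the day 10 arrays. The fitted spiky minus cystic difference was 0.37 (SE 0.12, 95% interval 0.10 to 0.63, limma adjusted p = 0.0876) and 0.21 (SE 0.14, interval -0.10 to 0.51, limma adjusted p = 0.433), the latter ranging from 0.065 to 0.36 with 1 array left out. Over the culture, day 15 minus day 5, SLC30A1 was at -0.13 (95% interval -0.45 to 0.19) and -0.05 (-0.42 to 0.33), and both turned positive after cyclic loess, to 0.00077 and 0.09. The third probe set, 242716_at, read 5.08, 4.61 and 4.97 against 4.87, 4.61 and 4.89, with only cystic day 5 above log2 5.

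**Figure D1:**
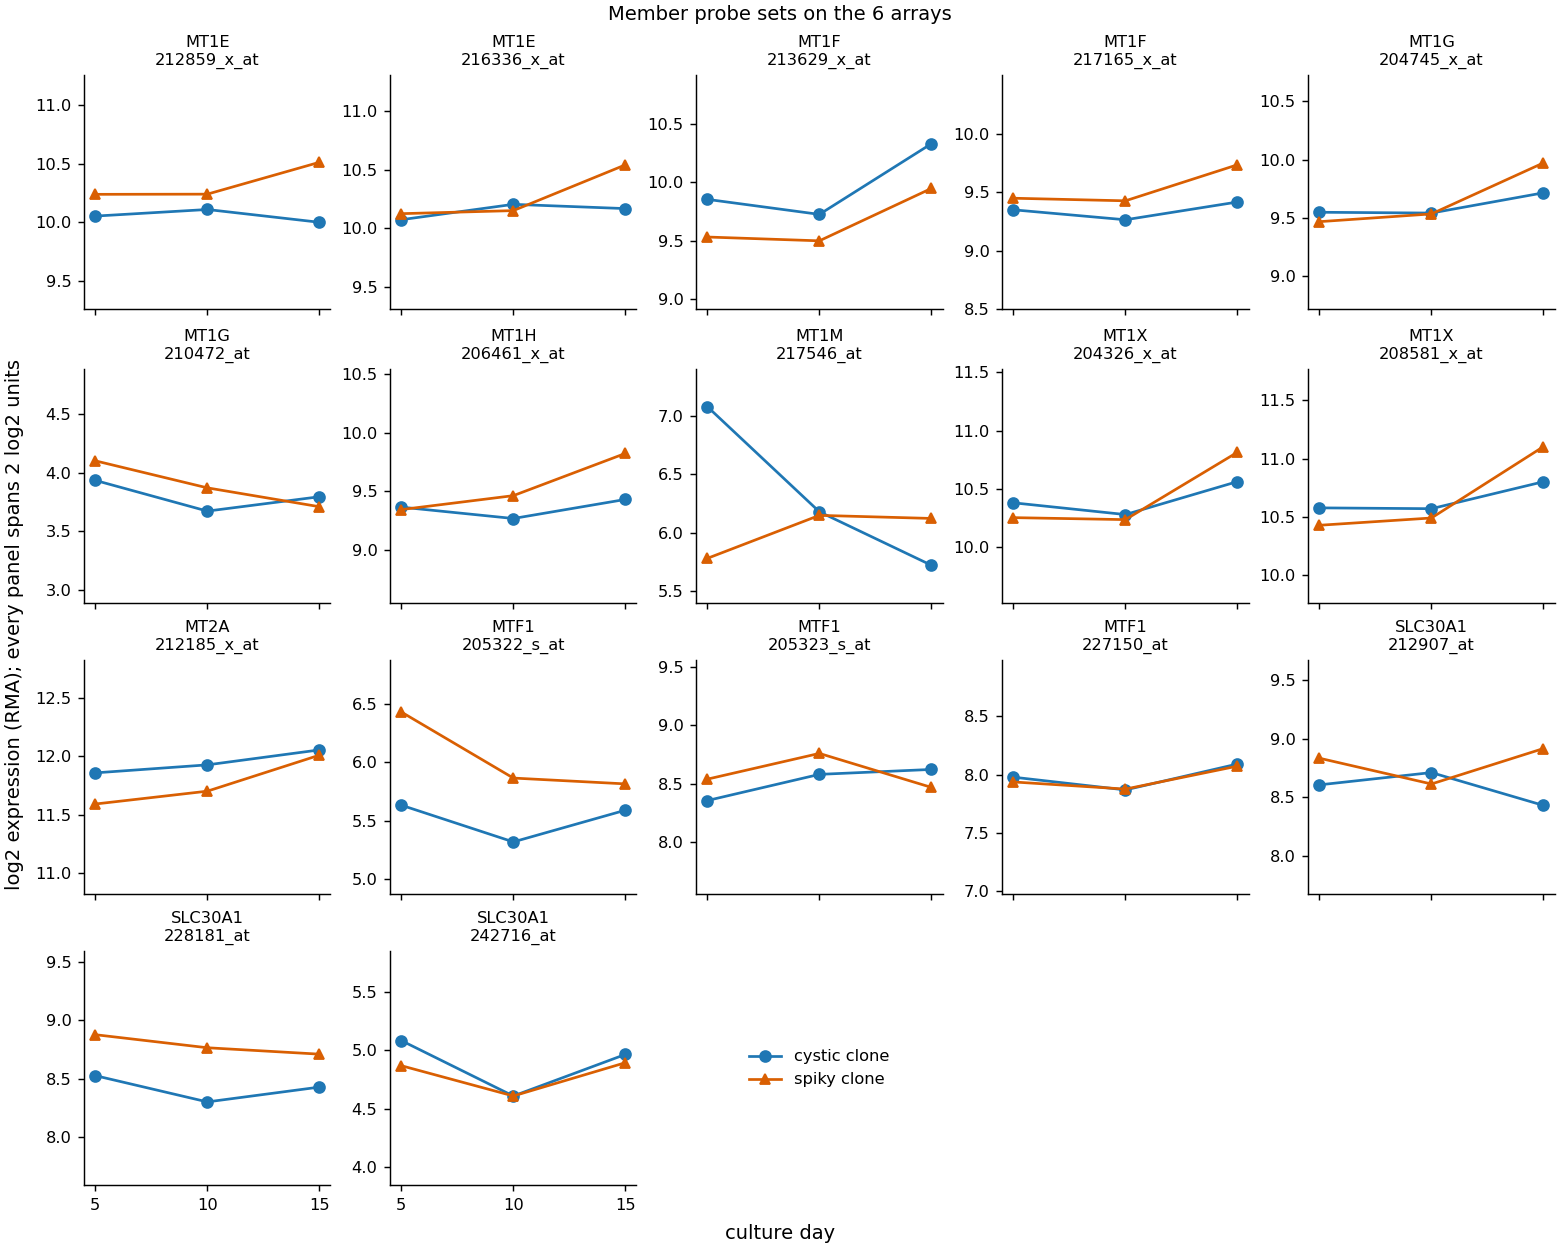
Log2 expression (vertical axis, each panel spanning 2 log2 units) against culture day for the 17 member probe sets, with blue circles for the cystic and orange triangles for the spiky clone, 1 array per point. Most _x_at panels end highest at spiky day 15, MT1M starts highest at cystic day 5 (7.08), and the lines of MTF1 227150_at nearly coincide.

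The neighbouring arrays in the order of each probe set were often closer than its own residual SD. That SD rests on 2 residual degrees of freedom and is not the moderated spread behind the limma standard errors. At SLC30A1 212907_at 5 of 5 gaps between neighbouring arrays were under its residual SD of 0.21, at MT1M 4 of 5 (residual SD 0.62), and at MT1X 208581_x_at 3 of 5 (0.17). At MT1F 213629_x_at, MTF1 227150_at and SLC30A1 228181_at only 1 of 5 gaps was under it, with residual SDs of 0.06, 0.02 and 0.06. The limma standard errors of their clone differences were larger, at 0.09, 0.13 and 0.12. The few gaps under so small an SD thus do not show well separated arrays.

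Read together, 0 of the 15 member probe sets passed between the clones, where 9.21% of all probe sets tested did. An unadjusted limma p under 0.05 was reached by 5 of the 15, and by 6591 of the 29412 probe sets tested. The 5 were MT1E 212859_x_at, MT1F 213629_x_at, MT2A, MTF1 205322_s_at and SLC30A1 228181_at. The members' median difference was 0.07, against -0.02 over all probe sets tested. The clones did not overlap in 4 of the 15 (MT1E 212859_x_at, MT1F 217165_x_at, MTF1 205322_s_at and SLC30A1 228181_at, each higher in the spiky clone), where 14.6% of all probe sets did not. Without either day 15 array, the cystic or the spiky, 2 of the 15 passed: MT2A at -0.25 (limma adjusted p = 0.0074 and 0.0071) and SLC30A1 228181_at at 0.41 (limma adjusted p = 0.0420 and 0.0460). Over all probe sets 4091 of 29412 passed without cystic day 15 and 4082 without spiky day 15. Leaving out either array breaks the same day 15 pair and gave the same differences, so these are not separate results.

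With time, 4 of the 15 rose from day 5 to day 15 and 0 fell, where 12.9% of all probe sets rose and 16.7% fell. The 4 were MT1F 213629_x_at, both MT1X probe sets and MT2A, each of the _x_at kind. The 9 _x_at probe sets all had a positive difference, from 0.11 to 0.45 with a median of 0.31, where 46.1% of all probe sets tested were positive and the median was -0.05. They were 9 of 9 positive also with arrays centred on their medians (median 0.22) and after cyclic loess (0.47). The median absolute difference was 0.32 for the 10 metallothionein probe sets and 0.34 for all tested. Centring left 2 of the 4 calls and loess made 7, and over all probe sets the higher calls were 3802 of 8700 as deposited, 3212 of 9612 centred and 4558 of 8408 after loess. Single arrays also mattered: the rises numbered 2 without cystic day 5, 7 without cystic day 15, 0 without spiky day 5, 1 without spiky day 15 and 3 without either day 10 array. The 7 rises after loess and the 7 without cystic day 15 were these 4 with MT1E 216336_x_at, MT1G and MT1H. A fall was called for MT1M without spiky day 5 and without spiky day 15.

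**Figure D2:**
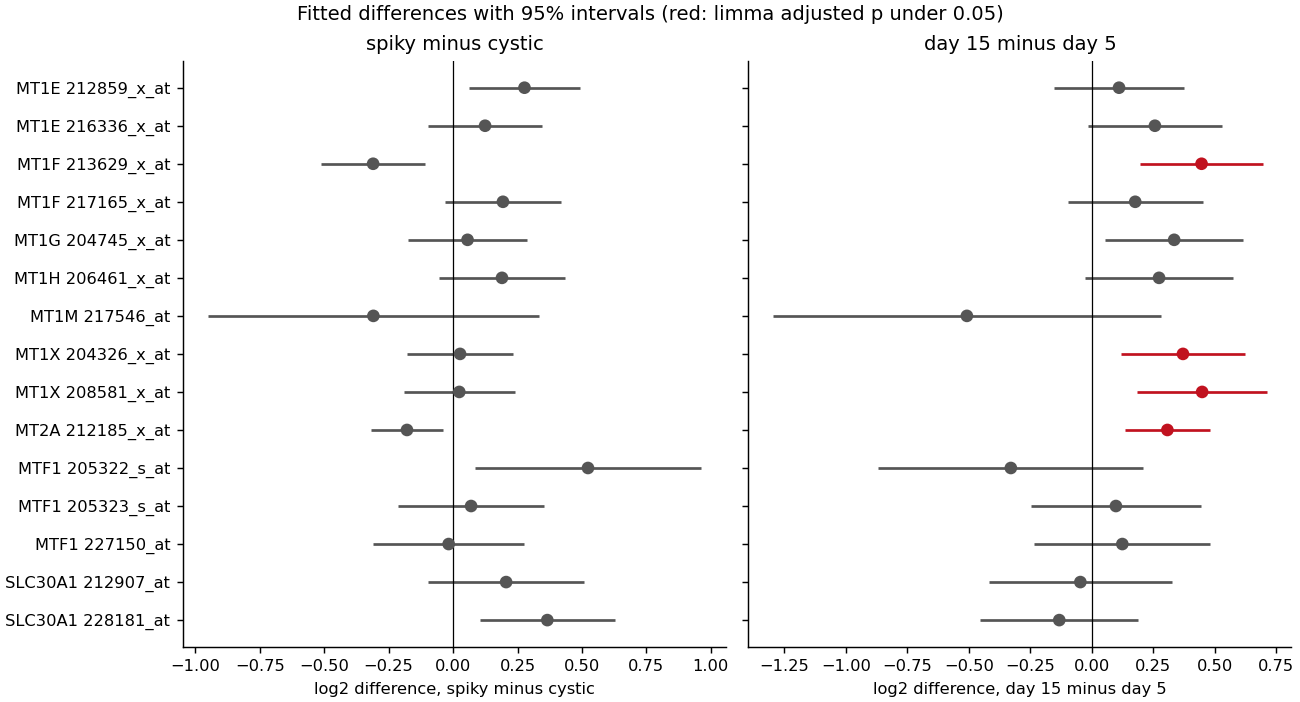
Fitted log2 differences (horizontal axes) of the 15 tested member probe sets with 95% intervals, spiky minus cystic on the left and day 15 minus day 5 on the right, red where the limma adjusted p was under 0.05. On the left 0 of 15 are red, and on the right the 4 red points are MT1F 213629_x_at, both MT1X probe sets and MT2A, at 0.31 to 0.45.

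Between day 5 and day 10, 0 of the 15 passed in limma, where 0.456% of all probe sets did. An unadjusted limma p under 0.05 was reached by 0 of the 15 and by 4256 of the 29412 probe sets tested. The members' differences ran from -0.44 to 0.22. Between day 10 and day 15, 3 of the 15 rose, where 7.6% of all did: MT1F 213629_x_at by 0.53 (limma adjusted p = 0.0114) and MT1X 204326_x_at and 208581_x_at by 0.43 and 0.42 (limma adjusted p = 0.0282 and 0.0351). MT2A was at 0.22 (limma adjusted p = 0.0777). The day comparisons share arrays, and the count of 3 was 0 without either day 10 array, 1 without spiky day 15 and 7 without cystic day 15.

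Within the clones, the 9 _x_at probe sets had a median step of -0.01 from day 5 to day 10 and 0.16 from day 10 to day 15 in the cystic clone, and of 0.03 and 0.39 in the spiky clone. The whole change, day 15 minus day 5, was positive for 8 of 9 in the cystic clone (median 0.17, -0.05 to 0.48) and for 9 of 9 in the spiky clone (median 0.42, 0.27 to 0.67). The step after day 10 was larger in the spiky clone for 8 of 9. As a result the median spiky minus cystic difference was -0.08 at day 5, -0.04 at day 10 and 0.30 at day 15, with 3, 3 and 7 of the 9 higher in the spiky clone. Spiky day 15 was the highest array for 7 of the 9 and cystic day 15 for the other 2, MT1F 213629_x_at and MT2A. The 9 may report partly on one another, so these counts are not of 9 separate observations. Shares over all probe sets are not given for them.

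The test of a difference in time course between the clones, the slope per 10 days, called 0 of the 15 members and 0% of all probe sets in limma, with an unadjusted p under 0.05 in 772 of the 29412. MT1M alone among the members had an unadjusted p under 0.05 (spiky minus cystic slope 1.70 per 10 days, SE 0.49, 95% interval 0.55 to 2.84), and its limma adjusted p was 0.9998. The other members ran from -0.57 for MTF1 205322_s_at to 0.45 for MT1X 208581_x_at. The larger late step of the spiky clone is thus a description of these arrays.

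**Figure D3:**
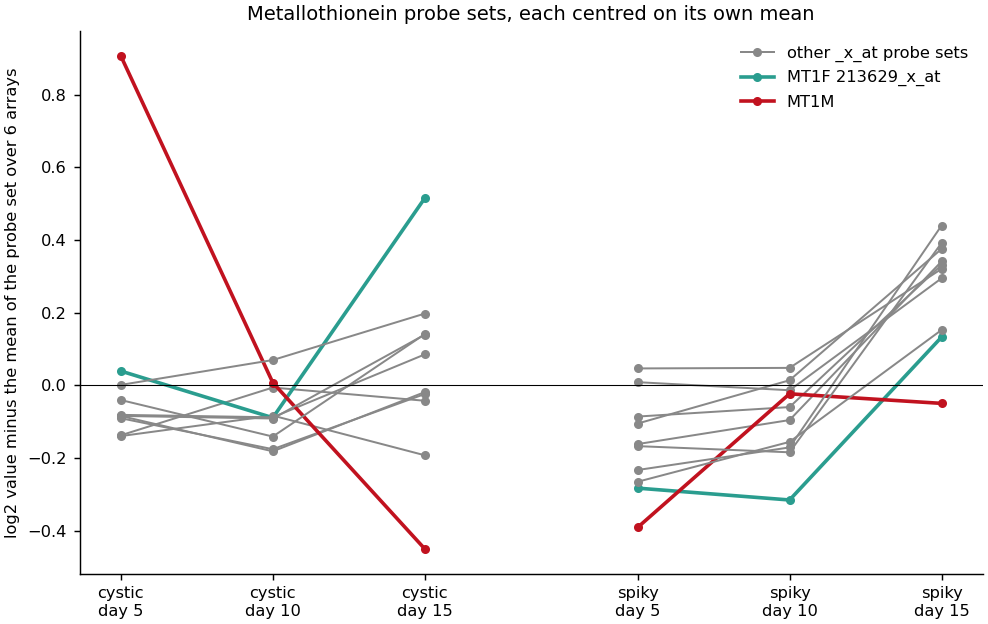
Log2 value minus the probe set's own mean (vertical axis) on each of the 6 arrays for the 10 tested metallothionein probe sets, the cystic clone on the left and the spiky on the right. The grey _x_at lines turn up at spiky day 15, MT1F 213629_x_at (green) is highest at cystic day 15, and MT1M (red) is highest at cystic day 5 and lowest at cystic day 15.

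The likeness of the metallothionein profiles was measured as the root mean square difference between centred values over the 6 arrays. It was 0.14 (median, 0.05 to 0.37) for 33 pairs of _x_at probe sets of different genes and 0.10 (0.04 to 0.29) for the 3 pairs of the same gene, while MT1M differed from the 9 by 0.50 (0.47 to 0.55). The closest pair was that of MT1X (0.043), followed by MT1G with MT1X 204326_x_at (0.055) and MT1F 217165_x_at with MT1H (0.058). The MT1F pair, at 0.29, was farther apart than the median pair of different genes. All pairs share the same 6 arrays, and the part that cross-detection has in their likeness was not tested.

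Outside the family, genes were compared with the mean profile of the 10 tested metallothionein probe sets, MT1M among them. At cystic day 5 this centred mean was 0.03, against -0.07 for the 9 _x_at probe sets alone. The genes closest to the mean of the 10 among 12308 were MPV17 (0.039), ADGRB1 (0.044), RGS2 (0.045), ZFPL1 (0.048) and SETDB1 (0.054). For SLC30A1 at 212907_at they were CMC4 (0.042), MSL2 (0.043), WDSUB1 (0.048), SETD3 (0.052) and TTC19 (0.053). With MT1M, MT2A or MT1X alone as the profile, 0 of the 5 metallothionein neighbours returned, so these names depend on which probe set is followed.

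The other zinc transporters, each gene at its brightest probe set, are set against 3.65% of all genes higher and 7.51% lower in the spiky clone, and 10.4% higher and 21.8% lower at day 15 than at day 5. SLC39 proteins carry zinc into the cytosol, and of 11 tested 1 was higher in the spiky clone and 0 lower, while 1 rose and 3 fell from day 5 to day 15. SLC39A6 (ZIP6) read 9.48, 9.44 and 8.70 in the cystic and 10.29, 10.02 and 9.52 in the spiky clone. It was higher in the spiky clone by 0.73 (SE 0.10, limma adjusted p = 0.0019), with all 4 of its probe sets passing at 0.73 to 1.17, and fell with time by 0.77 (limma adjusted p = 0.0018, 3 of 4 probe sets).

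SLC39A8 (ZIP8), which also carries manganese and cadmium, read 8.89, 8.76 and 7.61 in the cystic and 8.91, 8.52 and 7.79 in the spiky clone, and fell by 1.19 from day 5 to day 15 (limma adjusted p = 0.0009, 4 of 5 probe sets). SLC39A14 (ZIP14), a carrier of zinc, manganese and iron, read 10.53, 10.14 and 9.59 and then 10.36, 9.99 and 9.27, and fell by 1.01 (limma adjusted p = 0.0003, 2 of 2 probe sets). In all 3 genes day 15 was the lowest array of its clone. SLC39A11 rose by 0.43 (limma adjusted p = 0.0355), and that count was 0 without any one of the day 5 or day 10 arrays and 2 without cystic day 15.

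Among the 6 other SLC30 exporters tested, 0 were higher and 1 lower in the spiky clone, SLC30A3 at -0.72 (limma adjusted p = 0.0307), a count that was 0 without either day 5 or either day 10 array. With time 2 rose, SLC30A3 (0.75, limma adjusted p = 0.0259) and SLC30A5 (0.43, limma adjusted p = 0.0406), and 1 fell, SLC30A6 (-0.68, limma adjusted p = 0.0209). The probe sets of SLC30A5 and SLC30A6 went opposite ways, with SLC30A5 at -0.53 and -0.58 in 2 others that passed and SLC30A6 220814_at at 2.16 (limma adjusted p = 0.0011). No direction is given for these genes. The 2 rises were 0 without spiky day 5 and 1 without any other single array, and the fall was 0 without either day 5 array and without spiky day 15.

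**Figure D4:**
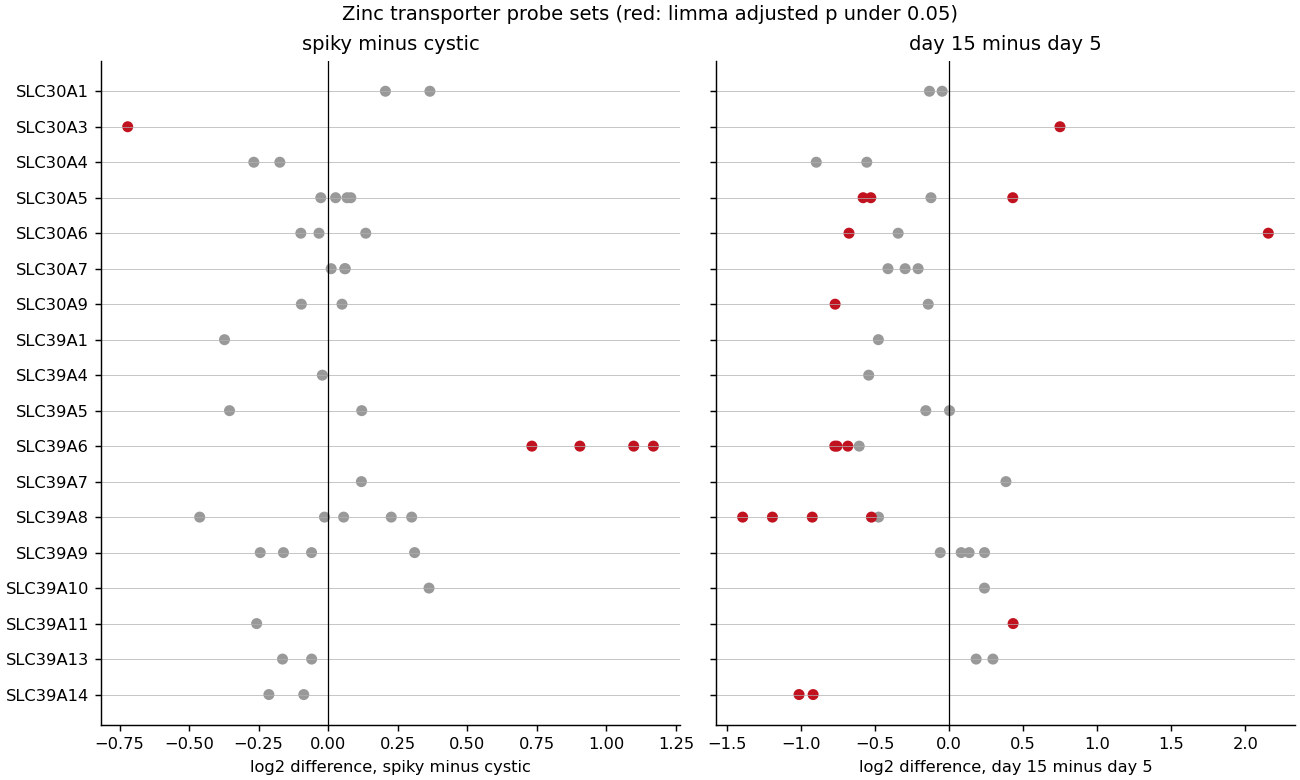
Fitted log2 differences (horizontal axes) of every tested probe set of SLC30 and SLC39 genes, 1 point per probe set, spiky minus cystic on the left and day 15 minus day 5 on the right, red where the limma adjusted p was under 0.05. The 4 SLC39A6 points stand at 0.73 to 1.17 on the left, and SLC30A5 and SLC30A6 have red points on both sides of 0 on the right.

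The remaining lists were read at the same gene level, where 10.4% of all genes rose and 21.8% fell from day 5 to day 15. Of 12 further metallothionein genes and pseudogenes 3 were on the array and 2 tested, with 0 calls: MT1HL1, again an _x_at probe set, at 0.26 (limma adjusted p = 0.120) and MT4 at 0.41 (limma adjusted p = 0.258) from day 5 to day 15. In the metal and oxidant stress list, 0 of 11 rose and 7 fell with time (median -0.74), GCLM, a subunit of the enzyme that starts glutathione synthesis, by 1.89 and the thioredoxin reductase TXNRD1 by 0.95. In copper handling 0 of 10 rose and 6 fell (SOD1 by 0.37, the copper importer SLC31A1 by 0.41), and in iron handling 0 of 7 rose and 3 fell (FTL by 0.46, TFRC by 1.16). Of 8 hypoxia markers 7 rose and 0 fell (median 1.59), and of 8 glucocorticoid response genes 0 rose and 2 fell. The median over all genes was -0.11. Without spiky day 5 the falls were 2 in the stress, 1 in the copper, 2 in the iron and 0 in the glucocorticoid list. Without cystic day 5 copper had 3 and glucocorticoid 1, without cystic day 15 stress had 2 rises and iron 2 falls.

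Between the clones, 3.65% of all genes were higher and 7.51% lower in the spiky clone. Counts in these lists were 1 higher and 2 lower of 11 (stress), 0 and 3 of 10 (copper), 2 and 1 of 7 (iron), 1 and 2 of 8 (glucocorticoid) and 0 and 1 of 8 (hypoxia). The copper genes were SOD1 at -0.47, SLC31A1 at -0.59 and SLC31A2 at -1.17, and of the iron genes FTL was higher by 0.38. Without cystic day 5 these counts were 0 and 1 (stress), 0 and 2 (copper), 1 and 0 (iron), 0 and 1 (glucocorticoid) and 0 and 1 (hypoxia), and without spiky day 5 they were the same but for copper, at 0 and 3. Without either day 15 array glucocorticoid and hypoxia each had 3 lower, and without either day 10 array stress and glucocorticoid had 1 lower and iron 0.

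Genes beside the cluster on chromosome 16 did not share one direction with it. Of 17 tested, 1 rose and 6 fell from day 5 to day 15, with a median of -0.28, where 10.4% of all genes rose and 21.8% fell. BBS2, the nearest tested gene of that list before the cluster, rose by 0.59 (limma adjusted p = 0.0235) and NUP93, the nearest after it, fell by 0.87 (limma adjusted p = 0.0008). Between the clones 0 of the 17 were higher and 1 lower, where 3.65% and 7.51% of all genes were. BBS2 and NUP93 were at 0.05 and 0.06. Without spiky day 5 the day counts were 0 rises and 3 falls, without cystic day 5 1 and 4, and without cystic day 15 3 and 7, and the 1 lower gene between the clones, ADGRG1, was lost without any one of the day 5 or day 10 arrays. COL1A1, a fibroblast marker, also moved with time (1.38, limma adjusted p = 0.0016). The ACTB 3' minus 5' difference was highest and that of GAPDH lowest at day 15 in each clone. The part of these in the day comparison was not tested.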

How the data were processed

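Expression was measured in 6 samples, 3 of the cystic and 3 of the spiky clone, grouped by the labels' colony morphology and day. Per the submitters' processing notes the authors used RMA (version, settings: not given in the sources used here), and the deposited log2 values have 0 missing entries. RMA summarises all probes of a probe set in 1 value, so signal that probes share between family members stays in the values. Precision is limited by the number of arrays, since there is no read depth.

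Probe sets were named by the platform's gene table (41097 with 1 symbol, 1801 with several, 11777 with none), and 41043 were matched to RefSeq by gene ID. Control probe sets (62) were left out. All 29412 probe sets with a mean of at least log2 5 were fitted in limma 3.58.1 (R 4.3.3) with day as a factor and clone, and variances following the intensity trend (residual degrees of freedom 2). Two-sided p-values were adjusted over all of them by Benjamini-Hochberg at a threshold of 0.05, and intervals are 95%. A second model took day as a number with its interaction with clone. The fit was also run on simulated data with noise drawn independently for each probe set and array. Such data cannot speak to days that share a culture or to probe sets that detect related transcripts. Figures were drawn with matplotlib 3.10.9.

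All member probe sets were named. Per list, with each gene at its brightest probe set, up to 2 genes per direction with the smallest p were named, or, with 0 passing, the 2 of largest difference. Some of these are covered by counts only, and SLC39A6 with time, SLC31A2 and the probe sets that went against a named gene were added after their values were seen. The members and lists were chosen with earlier results of these data known. The design crosses day with clone, so day is a block in the clone comparison. As a check, same-day arrays deviated together from their clone means (correlation across probe sets 0.619 at day 5, 0.431 at day 10, 0.701 at day 15), and arrays of unlike days correlated at -0.641 to 0.160. Deviations within a clone cancel out, so positive same-day values push those of unlike days down. The contrast between them is thus partly fixed in advance. Alternatives covered the filter, the unit tested, _x_at probe sets, scaling, the variance prior, the model's terms and each array left out. The same alternatives on list counts were added after seeing the data. Protein sequences were not used here.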

Additional observations from a re-analysis of the deposited data

Results flagged for a closer look

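MT1M stood out because its clones moved opposite ways: both later days lay below day 5 in the cystic clone and above it in the spiky clone. From day 5 to day 15 it changed by -1.36 in the cystic clone and 0.34 in the spiky clone, a difference of 1.70 on the log2 scale. The slope test of that difference in limma gave an unadjusted p of 0.0092 and an adjusted p of 0.9998, so it did not pass. Its unadjusted p comes from the same values that flagged MT1M and is no separate support. The pattern rests largely on the cystic day 5 array, at 7.08, against 5.72 to 6.18 on the other 5.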

How the results depend on the processing

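Each clone and day has 1 array, so the main fits leave 2 residual degrees of freedom, and some alternatives another number. The limma p-values and intervals also lean on a variance prior shared over all probe sets tested. Of 15 member probe sets, 0 passed between the clones in every alternative that kept all arrays. The 4 rises from day 5 to day 15 became 2 with arrays centred on their medians, 7 after cyclic loess and 0 without the intensity trend, with clone left out of the model, or without _x_at probe sets (6 members left). Their adjusted p ranged over the alternatives from 0.0047 to 0.177 for MT1F 213629_x_at, 0.000852 to 0.336 for MT1X 204326_x_at, 5.85e-05 to 0.229 for MT1X 208581_x_at and 0.000473 to 0.197 for MT2A, and the calls were kept in 11 of 15, 5 of 14, 11 of 15 and 10 of 15. The lost calls included those without spiky day 5 (0.44, 0.26, 0.32 and 0.24) and, for MT1X and MT2A, without spiky day 15 (0.20, 0.24 and 0.21), without cystic day 5 for MT1F (0.45) and MT1X 204326_x_at (0.49), and without either day 10 array for the latter (0.37). The 3 rises after day 10 became 1 without the filter or with centring, 5 after loess, and 0 without the trend, without clone or without _x_at probe sets. Leaving out 1 array gave 0 to 2 member calls between clones, 1 to 7 from day 5 to 15 (0 to 7 rises, and a fall of MT1M in 2 of 6 cases) and 0 to 7 from day 10 to 15.

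Over all probe sets, the 2709 clone calls became 1405 with 1 probe set per gene, 998 without the trend and 110 with no replicate block for day, and 1230 to 4091 without 1 array. The 8700 calls of day 15 against day 5 became 3982 per gene and 3142 without clone (2982 to 9090). The 134 of day 10 against day 5 became 19 without the filter, 230 at a mean of at least 6, 2 per gene, 0 without the trend or without clone, and 1733 in the 4 arrays compared (0 to 1733). The 5233 of day 15 against day 10 became 2787 per gene, 1512 without the trend and 169 without clone (1584 to 6835), and the slope test made 0 to 1. Higher calls between the clones were 934 of 2709, 1355 of 2870 centred and 1076 of 2758 after loess, and after day 10 2235 of 5233, 1830 of 6010 and 2691 of 5191. With no replicate block 0 member and 0 zinc importer calls were made between the clones, so the SLC39A6 call was lost there.

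Signs turned for MTF1 227150_at between clones (0.038 centred, 0.0081 loess) and for SLC30A1 with time (0.089 and 0.00077 after loess). Without 1 array, clone differences spanned 0 for MT1E 216336_x_at (-0.0010 to 0.21), MT1G (-0.044 to 0.12), MT1M (-0.66 to 0.18) and MT1X (-0.085 to 0.10 and -0.11 to 0.11). Day 15 against day 5 did so for MT1E 212859_x_at (-0.067 to 0.29), MT1M (-1.25 to 0.23, and 0.02 without cystic day 15), MTF1 205323_s_at (-0.070 to 0.27) and SLC30A1 212907_at (-0.26 to 0.16). Values that kept their sign but moved by over 1.5 times were, between clones, SLC30A1 212907_at (0.065 to 0.36), MT1E 212859_x_at (0.16 to 0.35), MT1H (0.087 to 0.29), MTF1 205323_s_at (0.013 to 0.18) and 227150_at (-0.030 to -0.0055), and with time both MT1X probe sets (0.20 to 0.54 and 0.24 to 0.66), MT1E 216336_x_at (0.069 to 0.44), MT1G (0.18 to 0.48), MT1H (0.12 to 0.43), MT1F 217165_x_at (0.082 to 0.27), MTF1 205322_s_at (-0.55 to -0.11) and SLC30A1 228181_at (-0.19 to -0.070). The cause was not tested. The MT1M fold of cystic day 5 over day 15 was 2.11 with the background level at 6.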
